A study of Mus musculus with 7 samples.

Results

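The genes described here are 10 genes of the endoplasmic reticulum (ER) stress response, chosen by symbol from the 35976 genes of the count table. All 10 were present. They comprise 5 targets of the transcription factors ATF6 and XBP1 (Hspa5, Xbp1, Herpud1, Sdf2l1 and Creld2) and 5 genes of the ATF4 branch (Atf4 itself, Ddit3, Trib3, Chac1 and Ppp1r15a). The samples were amygdala cells of male C57BL/6J mice that had received adeno-associated virus with a guide RNA against Egfr, the epidermal growth factor receptor gene (sgEgfr, 3 libraries), or against the Rosa26 locus as control (sgRosa, 4 libraries). In both groups Cas9 was driven by GfaABC1D, a promoter active in astrocytes, and the virus was expressed for more than 2 weeks. All mice of both groups then went through tube restraint for 7 days, fear conditioning on 1 day and extinction training on 3 days, so no unstressed group enters the comparison. Astrocytes were enriched with beads that bind their surface antigen ACSA-2, and the labels give neither the age of the mice nor whether a library was 1 mouse or a pool.

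Proteins that enter the ER fold there with the help of chaperones, and unfolded proteins set off 3 sensors in the ER membrane. ATF6 is cut to release a transcription factor, and IRE1 (gene Ern1) splices Xbp1 mRNA so that it encodes one. Both induce chaperones and genes of ER-associated degradation (ERAD), which sends misfolded proteins to the proteasome. The kinase PERK (gene Eif2ak3) phosphorylates the initiation factor eIF2α, which lowers protein synthesis while the mRNA of Atf4 is translated more. Other eIF2α kinases feed into the same step without ER stress, so ATF4 targets also answer amino acid shortage, viral RNA and other stresses. Gene counts measure neither Xbp1 splicing nor ATF4 translation, cleavage of ATF6 or phosphorylation.

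Depth was 14983594 to 22579222 counts in the sgEgfr libraries and 5852870 to 18345655 counts in the sgRosa libraries. The counts of sgRosa 3 and 4 differed by little more than sampling noise (chi-square per degree of freedom 1.04, against 14.8 to 158 in the other 20 pairs), and they were summed to 1 sample, sgRosa 3+4. Each group thus had 3 samples, and p-values measure the spread between these samples, which may be technical. Egfr, the targeted gene, was at 10.7, 5.69 and 8.05 CPM in samples sgEgfr 1 to 3 and at 13.3, 2.87 and 10.6 CPM in sgRosa 1, 2 and 3+4. The groups overlapped, and since Cas9 cuts need not lower an mRNA, this does not test the labels. CPM values are counts per 1000000 counts of a sample, scaled with TMM factors that set the bulk of genes level between samples. Defining astrocyte markers such as Aqp4, Gja1 and Gfap were present in every sample, and the 15 astrocyte markers took 0.867% to 1.22% of counts in sgEgfr and 1.23%, 0.546% and 1.39% in sgRosa 1, 2 and 3+4. sgRosa 2 thus stood apart, and it was also lowest for Egfr. The 15 oligodendrocyte markers took 9.41% to 16.05% in sgEgfr and 8.61% to 13.1% in sgRosa, and genes such as Hspa5 are expressed in both cell types. In such bulk samples fewer cells of a type and less RNA per cell cannot be told apart.

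The DNA elements through which these factors act were looked for in the 250 bases upstream of each gene's annotated start. Promoter sequences are those of RefSeq (GRCm38.p6), in which all 10 genes have 1 entry each. The ER stress response element (ERSE) joins CCAAT, a site for the factor NF-Y, to the ATF6 site CCACG with 9 bases of any kind between them. ERSE-II is its compact form, ATTGG and CCACG with 1 base of any kind between them. The unfolded protein response element (UPRE, TGACGTGG) is bound by XBP1, the C/EBP-ATF response element (CARE, TGATGNAA) by ATF4 with a C/EBP partner, and the cyclic AMP response element (CRE, TGACGTCA) by CREB and ATF proteins. Matches were sought on both strands, and they mark letters, not bound sites.

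The ERSE was found upstream of Hspa5, starting 65 bases before the start site, and of Creld2, on the opposite strand and starting 126 bases before it. It occurs in 0.113% of the 32851 promoter windows of the mouse table. Herpud1 held ERSE-II 52 bases before its start, a match found in 0.0304% of windows, and also a CARE at 112 bases on the opposite strand. Chac1 held a CARE on the opposite strand at 193 bases, and 3.45% of all windows hold one. Ppp1r15a held a CRE at 12 bases, as do 1.55% of all windows. The matches did not overlap each other. UPRE (0.563% of windows) was in no member's window, and Xbp1, Sdf2l1, Atf4, Ddit3 and Trib3 held none of the 5 letter strings in this stretch, which says nothing of the factors. The windows with a match are shown 5′ to 3′ along the gene's strand, as the members whose elements can be read beside their values, with each match in capitals. The Hspa5 window is chr2:34771840-34772089 (plus strand), the Creld2 window chr15:88819396-88819645 (plus strand), the Herpud1 window chr8:94386179-94386428 (plus strand), the Chac1 window chr2:119350992-119351241 (plus strand) and the Ppp1r15a window chr7:45526269-45526518 (minus strand).
Hspa5: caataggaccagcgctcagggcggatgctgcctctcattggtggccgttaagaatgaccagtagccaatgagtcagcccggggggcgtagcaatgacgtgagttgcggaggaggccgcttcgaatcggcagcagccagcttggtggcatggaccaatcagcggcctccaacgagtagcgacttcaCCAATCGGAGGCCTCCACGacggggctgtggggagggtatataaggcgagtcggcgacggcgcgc
Creld2: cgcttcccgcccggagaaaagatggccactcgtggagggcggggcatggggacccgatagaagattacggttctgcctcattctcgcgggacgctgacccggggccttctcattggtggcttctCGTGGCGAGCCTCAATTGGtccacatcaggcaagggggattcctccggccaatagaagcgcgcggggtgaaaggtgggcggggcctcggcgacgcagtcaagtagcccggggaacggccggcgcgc
Herpud1: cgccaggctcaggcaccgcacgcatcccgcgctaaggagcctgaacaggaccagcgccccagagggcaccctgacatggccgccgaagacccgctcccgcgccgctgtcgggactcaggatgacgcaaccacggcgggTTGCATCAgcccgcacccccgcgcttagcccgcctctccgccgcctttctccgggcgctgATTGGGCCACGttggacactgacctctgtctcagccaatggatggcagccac
Chac1: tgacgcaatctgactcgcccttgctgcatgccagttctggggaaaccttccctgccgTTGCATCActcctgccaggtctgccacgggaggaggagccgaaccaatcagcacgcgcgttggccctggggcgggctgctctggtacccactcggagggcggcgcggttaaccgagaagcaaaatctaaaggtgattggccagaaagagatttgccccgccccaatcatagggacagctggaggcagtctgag
Ppp1r15a: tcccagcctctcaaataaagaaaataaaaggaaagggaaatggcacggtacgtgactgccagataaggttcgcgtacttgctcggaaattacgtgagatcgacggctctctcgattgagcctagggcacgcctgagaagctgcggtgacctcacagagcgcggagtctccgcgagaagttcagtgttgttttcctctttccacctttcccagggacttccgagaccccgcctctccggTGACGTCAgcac

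**Figure D1:**
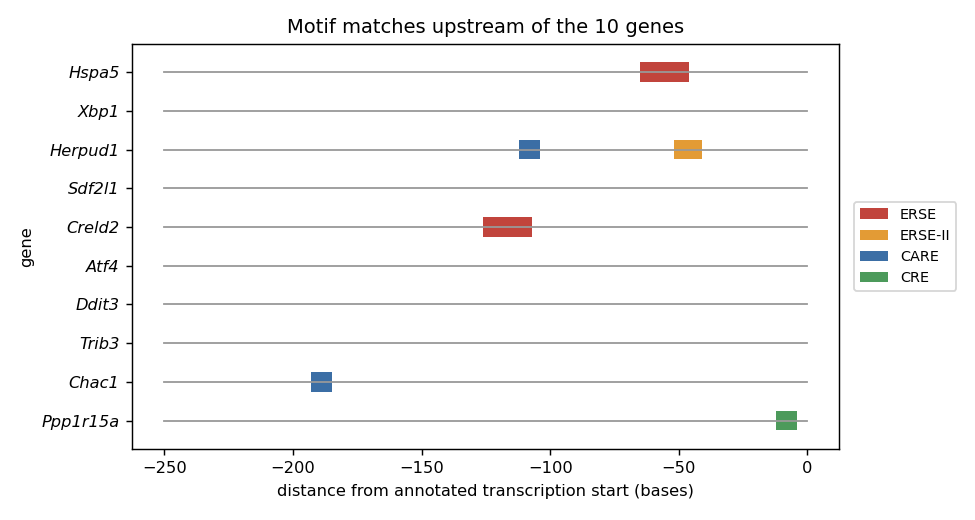
Matches to the 5 letter strings in the 250 bases upstream of the 10 genes, by distance from the annotated transcription start. Boxes are to scale and mark the ERSE of Hspa5 and Creld2, the ERSE-II and CARE of Herpud1, the CARE of Chac1 and the CRE of Ppp1r15a. The other 5 lines carry no box.

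Of the 10 genes, 9 passed the filter on low counts and were tested, and Trib3 did not. No member was called with edgeR at an adjusted p under 0.05 (adjusted p = 0.997 for each of the 9), and 0 of the 14936 genes tested (0%) were called. Ppp1r15a alone of the 9 had an unadjusted p under 0.05, where 2.68% of all genes tested had one (401 genes, 1.31% with the larger value in sgEgfr and 1.37% with the smaller). By DESeq2 500 genes had an unadjusted p under 0.05 and 0 were called. By limma-voom the numbers were 418 and 0, or 793 and 0 with samples weighted by quality. Positive log2 fold changes, meaning a larger value in sgEgfr, were found for 8 of the 9 members, against 52.9% of all genes. The members were chosen with earlier results of these data known, so this count is a description and not a test. The ranges of the 2 groups did not overlap for Ppp1r15a and overlapped for the other 8, against 7.61% of all genes with ranges apart (3.76% with sgEgfr above and 3.85% with sgEgfr below).

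**Figure D2:**
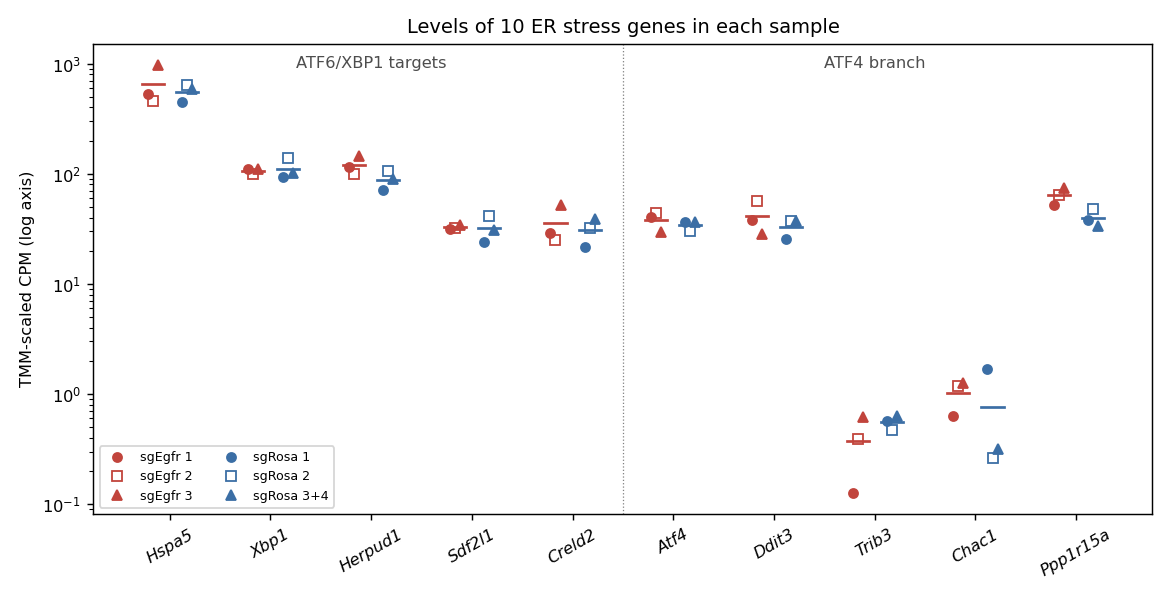
Level of each of the 10 genes in each sample, in CPM scaled with TMM, on a log axis. Red symbols are sgEgfr 1 to 3, blue symbols sgRosa 1, 2 and 3+4, and horizontal lines the group means (n = 3 each). Ppp1r15a is the one gene whose red symbols, at 52.4 to 74.0 CPM, all lie above the blue ones, at 33.5 to 47.7 CPM.

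Per kilobase of annotated exon, which makes genes comparable, Hspa5 stood far above the rest at a mean of 142 CPM per kb over the 6 samples. Its lowest sample, 105 CPM per kb, lay above the highest of Herpud1, 62.6 CPM per kb. Mean levels of the next 7 followed in a continuous order: Herpud1 44.7, Xbp1 33.4, Sdf2l1 29.1, Creld2 24.3, Ddit3 21.6, Ppp1r15a 17.6 and Atf4 15.3 CPM per kb, with sample ranges that overlapped between each neighbouring pair. Chac1 (0.545 CPM per kb) and Trib3 (0.220 CPM per kb) came last, apart from Atf4, whose lowest sample had 12.6 CPM per kb, but overlapping each other. These levels rest on GENCODE exon lengths, and the annotation the authors counted on is not given in the sources used here.

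Hspa5 encodes BiP, the main HSP70 chaperone of the ER and the protein that holds the sensors inactive. It was at 530.0, 453 and 963 CPM in samples sgEgfr 1 to 3, against 444, 634 and 585 CPM in sgRosa 1, 2 and 3+4. The highest value was that of sgEgfr 3, while sgEgfr 1 and 2 lay within or near the sgRosa range, so the groups overlapped. Means were 649 ± 275 CPM in sgEgfr and 554 ± 98.6 CPM in sgRosa (SD, n = 3 each), a log2 fold change of 0.23 (95% confidence interval -0.51 to 0.96, SE 0.32). Without sgEgfr 3 the log2 fold change was -0.17.

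Creld2, an ER-resident disulfide isomerase-like protein, had a profile similar to that of Hspa5 in the sgEgfr samples. Both promoters hold an ERSE match, whose part in this was not tested. Creld2 was at 29.2, 25.1 and 51.8 CPM in samples sgEgfr 1 to 3, against 21.8, 32.3 and 38.5 CPM in sgRosa 1, 2 and 3+4. Again sgEgfr 3 was highest, and the other sgEgfr samples lay inside the sgRosa range. The log2 fold change came to 0.20 (SE 0.32), but to -0.19 without sgEgfr 3 and to -0.0012 without sgRosa 1, the lowest sample of Creld2.

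Herpud1, a membrane protein that helps assemble the ERAD ubiquitin ligase complex, had the largest value of the ATF6/XBP1 targets. It was at 116, 98.8 and 146 CPM in samples sgEgfr 1 to 3, against 70.4, 106 and 88.6 CPM in sgRosa 1, 2 and 3+4. The groups overlapped only through sgRosa 2, which lay above sgEgfr 2. Means were 120 ± 24.0 CPM in sgEgfr and 88.4 ± 17.9 CPM in sgRosa (SD, n = 3 each), and the log2 fold change was 0.44 (95% confidence interval -0.055 to 0.94, SE 0.21, edgeR unadjusted p = 0.0738). Herpud1 overlaps an antisense gene, Gm15890, in GENCODE. Its value was positive with each library left out, from 0.28 without sgEgfr 3 to 0.59 without sgRosa 2.

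Xbp1, which encodes the factor itself and is induced by ATF6, was at 110, 99.7 and 109 CPM in samples sgEgfr 1 to 3, against 93.6, 138 and 101 CPM in sgRosa 1, 2 and 3+4. All sgEgfr samples lay inside the sgRosa range. Its log2 fold change was -0.062 (95% confidence interval -0.49 to 0.36, SE 0.18), and 0.13 without sgRosa 2. Sdf2l1, a partner of BiP and its cochaperones, was at 31.2, 32.4 and 34.0 CPM in samples sgEgfr 1 to 3, against 24.2, 40.9 and 30.8 CPM in sgRosa 1, 2 and 3+4. The sgEgfr samples again lay between sgRosa 1 and sgRosa 2. The log2 fold change of Sdf2l1 was 0.024 (95% confidence interval -0.46 to 0.51, SE 0.21), with a sign that turned without sgRosa 1 (-0.14), without sgEgfr 3 (-0.0088) and with library size as the sole scaling (-0.021).

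Over the 5 ATF6/XBP1 targets the median log2 fold change was 0.20, beside 0.020 over all genes tested, and 4 of 5 were positive. That median was -0.083 without sgEgfr 3 and -0.0012 without sgRosa 1, so its sign rested on those libraries, and it was 0.31 without sgEgfr 1 and 0.37 without sgEgfr 2. All 5 genes had their lowest value in sgRosa 1. Of their highest values, 3 were in sgEgfr 3 (Hspa5, Herpud1 and Creld2) and 2 in sgRosa 2 (Xbp1 and Sdf2l1). The mean deviation of the 5 genes from their own 6-sample means, on the log2 scale, was -0.015, -0.16 and 0.41 in sgEgfr 1 to 3, against -0.41, 0.19 and -0.011 in sgRosa 1, 2 and 3+4. sgRosa 2, where all 5 were above their mean, was the sample lowest in astrocyte markers, whose part in these values was not tested. The spread within either guide was wider than the difference between the guides.

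Ppp1r15a encodes GADD34, the regulatory subunit that directs protein phosphatase 1 to eIF2α and so restores protein synthesis. It was at 52.4, 64.3 and 74.0 CPM in samples sgEgfr 1 to 3, against 37.8, 47.7 and 33.5 CPM in sgRosa 1, 2 and 3+4. Every sgEgfr sample lay above every sgRosa sample, as was so for 3.76% of all genes tested. Means were 63.5 ± 10.8 CPM in sgEgfr and 39.7 ± 7.29 CPM in sgRosa (SD, n = 3 each), a 1.60-fold difference. The log2 fold change was 0.68 (95% confidence interval 0.22 to 1.14, SE 0.20, edgeR unadjusted p = 0.0093, adjusted p = 0.997). It lay between 0.56 and 0.83 with each library left out and between 0.61 and 0.73 under the other settings, and the adjusted p was at least 0.738 in all of them. In GENCODE the gene overlaps Tulp2 on the opposite strand, and the strand setting of the counting is not given in the sources used here.

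Atf4, the factor at the head of the branch, was at 40.2, 43.9 and 29.7 CPM in samples sgEgfr 1 to 3, against 36.4, 30.2 and 36.5 CPM in sgRosa 1, 2 and 3+4. The highest value and the lowest were both those of sgEgfr samples, sgEgfr 2 and sgEgfr 3. Its log2 fold change was 0.14 (95% confidence interval -0.30 to 0.58, SE 0.19), and 0.005 without sgEgfr 2. Ddit3 encodes CHOP, a factor that ATF4 induces and that promotes cell death when ER stress persists. Ddit3 was at 38.0, 56.7 and 28.3 CPM in samples sgEgfr 1 to 3, against 25.3, 37.1 and 36.9 CPM in sgRosa 1, 2 and 3+4. As for Atf4, sgEgfr 2 was highest and sgEgfr 3 was the lowest of its group. The log2 fold change of Ddit3 was 0.31 (95% confidence interval -0.35 to 0.96, SE 0.28), and -0.020 without sgEgfr 2. In GENCODE Ddit3 overlaps Mars, a tRNA synthetase gene, on the opposite strand, so its counts are uncertain where the counting ignored strand.

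Chac1, an enzyme that degrades glutathione and a sensitive target of ATF4, had few counts. There were 10, 18 and 29 counts in sgEgfr 1 to 3, against 24, 5, 5 and 0 counts in sgRosa 1 to 4, where 3 counts stand for 0.513 CPM in sgRosa 4. The scaled levels were 0.634, 1.18 and 1.27 CPM in samples sgEgfr 1 to 3, against 1.69, 0.261 and 0.318 CPM in sgRosa 1, 2 and 3+4. The highest sample was thus an sgRosa one, and so were the lowest 2. The log2 fold change of Chac1 was 0.47 (95% confidence interval -1.37 to 2.31, SE 0.79), with 1.81 without sgRosa 1 (edgeR unadjusted p = 0.046) and 0.036 without sgRosa 2. Trib3, a pseudokinase induced by ATF4 and CHOP that inhibits AKT, had 2, 6 and 14 counts in sgEgfr 1 to 3, against 8, 9, 8 and 2 counts in sgRosa 1 to 4. Trib3 was at 0.127, 0.393 and 0.612 CPM in sgEgfr, against 0.565, 0.470 and 0.636 CPM in sgRosa 1, 2 and 3+4, and these ranges overlapped. Fitted without a filter, Trib3 had a log2 fold change of -0.52 (SE 0.83, edgeR unadjusted p = 0.541). No difference larger than the spread between samples was found in either gene with all samples in the fit.

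**Figure D3:**
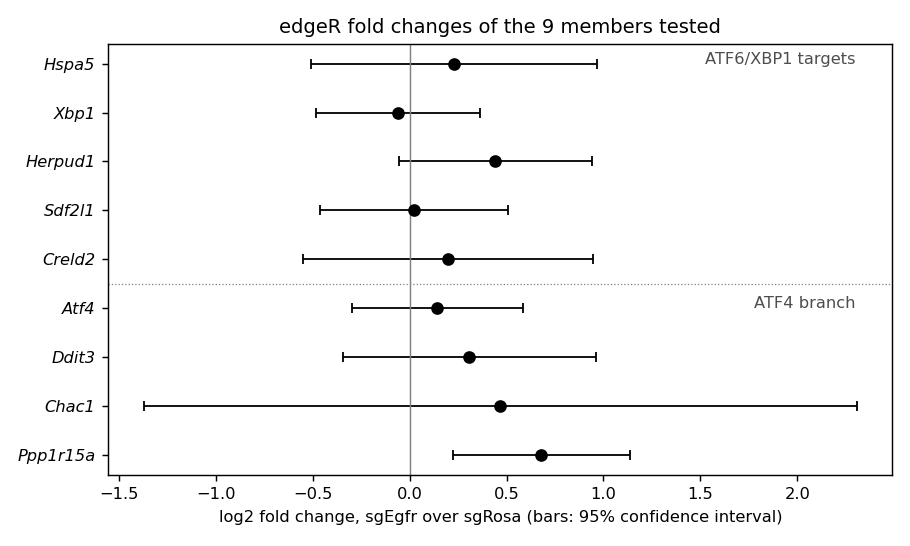
Log2 fold change of sgEgfr over sgRosa for the 9 members tested, with 95% confidence intervals from edgeR (3 samples against 3). The interval of Ppp1r15a, 0.22 to 1.14, is the one that leaves out 0, and that of Chac1 is the widest.

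The 4 ATF4 branch genes that were tested all had positive log2 fold changes, with a median of 0.39 beside 0.020 over all genes, and the fifth, Trib3, had a negative one. Over the same 4 genes the median was 0.17 without sgEgfr 2 and 0.22 without sgRosa 2, both lower by more than the spread between replicates (0.157), and it reached 0.53 without sgEgfr 1. Atf4 and Ddit3 differed in their profile over the samples from the ATF6/XBP1 targets. In sgEgfr 3, where all 5 ATF6/XBP1 targets lay above their mean, Atf4 and Ddit3 deviated by -0.27 and -0.34 on the log2 scale. In sgEgfr 2 they deviated by 0.29 and 0.66, while Hspa5 and Creld2 deviated by -0.36 and -0.34. In sgRosa 2 all 5 ATF6/XBP1 targets again lay above their mean, from 0.023 for Creld2 to 0.36 for Xbp1 and Sdf2l1, while Atf4 deviated by -0.24 and Ddit3 by 0.048. sgRosa 1 was lowest for the 5 ATF6/XBP1 targets and for Ddit3, but not for Atf4 (0.024). Ppp1r15a stood above its mean in sgEgfr 2 (0.37) and in sgEgfr 3 (0.57) alike, as did Chac1 (0.59 and 0.69), which had few counts. The profile of Atf4 and Ddit3 was thus not that of all 4 tested ATF4 branch genes. The mean deviation of the 4 was 0.033, 0.48 and 0.16 in sgEgfr 1 to 3, against 0.052, -0.36 and -0.37 in sgRosa 1, 2 and 3+4. Without Chac1 this mean was 0.11, 0.44 and -0.011 in sgEgfr 1 to 3. In sgRosa 1, 2 and 3+4 it was then -0.29, -0.085 and -0.16. The signs of the mean in sgEgfr 3 and sgRosa 1 thus rested on Chac1, with its few counts.

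**Figure D4:**
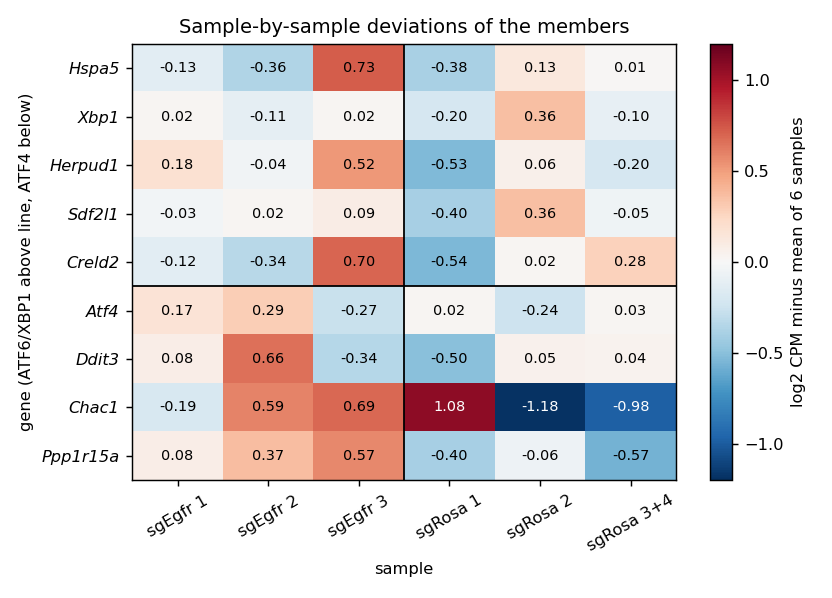
Log2 CPM of each tested member in each sample minus that gene's mean over the 6 samples. Rows above the line are ATF6/XBP1 targets and rows below it ATF4 branch genes, with sgEgfr samples left of the vertical line and sgRosa samples right of it. The column of sgEgfr 3 reads 0.73 for Hspa5 and -0.34 for Ddit3, and that of sgEgfr 2 reads -0.36 and 0.66. Chac1 and Ppp1r15a read 0.69 and 0.57 in the column of sgEgfr 3.

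The other genes of the response were read from lists of its parts that hold none of the 10 members. None of their tested genes was called, so what follows gives values. Of 18 ERAD genes, 17 had negative log2 fold changes and 1 a positive one (52.9% of all genes were positive), with a median of -0.14, opposite in sign to Herpud1. Edem1, which picks out misfolded glycoproteins and is a standard XBP1 target, had -0.37 (SE 0.22), and the ubiquitin ligase Syvn1 had -0.26 (SE 0.17). Herpud2, a paralogue of Herpud1, had -0.30 (SE 0.23). The ERAD median lay between -0.17 (without sgEgfr 3) and -0.054 (without sgRosa 1) with 1 library left out, and was -0.21 without sgRosa 3 and 4 together. In these fits 13 to 17 of the genes were negative.

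Of 22 ER folding genes tested, 14 were positive and the median was 0.17. Over the same genes it was 0.051 without sgEgfr 3 and 0.045 without sgRosa 1. The oxidoreductase Pdia3 (0.35, SE 0.22), the prolyl isomerase Fkbp2 (0.33, SE 0.21) and the BiP cochaperone Dnajb9 (0.22, SE 0.16) had positive log2 fold changes. Hyou1, a nucleotide exchange factor of BiP, had a negative one (-0.38, SE 0.21), with every sgEgfr sample below every sgRosa sample. Genes of translocation into the ER and export from it were split, with 10 of 18 positive and a median of 0.044, which ran from -0.073 without sgEgfr 2 to 0.11 without sgRosa 2. Among them Sec61b, a subunit of the translocation channel, was at 25.6, 23.1 and 29.6 CPM in samples sgEgfr 1 to 3, against 18.3, 20.1 and 22.1 CPM in sgRosa 1, 2 and 3+4, with ranges apart and a log2 fold change of 0.37 (SE 0.18). Ssr1 had -0.36 (SE 0.26), Spcs3 -0.23 (SE 0.17) and Sec63 -0.26 (SE 0.21).

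Sensors and processing factors centred on 0, with 10 of 17 positive and a median of 0.0075 that ran from -0.10 without sgEgfr 2 to 0.049 without sgRosa 2. Atf6b, a relative of ATF6, had a log2 fold change of -0.23 (SE 0.16). Eif2a, which encodes the factor eIF2A and not eIF2α, had -0.24 (SE 0.18). Nfe2l2, the factor NRF2 that PERK can phosphorylate, had -0.34 (SE 0.15) with ranges apart. Creb3l1, an ER-membrane factor cut in the same way as ATF6, had the largest value at 1.44 (SE 0.60). It was at 5.71, 4.91 and 21.3 CPM in samples sgEgfr 1 to 3, against 4.45, 2.72 and 4.64 CPM in sgRosa 1, 2 and 3+4, so the ranges were apart by a narrow margin and sgEgfr 3 alone stood well above the rest.

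ATF4 targets outside the 5 members were divided. Of 15 stress regulators tested, 9 were positive and the median was 0.074, with -0.081 without sgEgfr 3, -0.009 without sgRosa 1 and 0.31 without sgRosa 2. Atf3, a factor induced by ATF4 and also an immediate early gene, had 1.89 (SE 0.71) with 32.5, 55.6 and 218 CPM in samples sgEgfr 1 to 3, against 19.8, 44.4 and 18.5 CPM in sgRosa 1, 2 and 3+4. The groups overlapped, and sgEgfr 3 was far above the other samples. The mTOR inhibitor Ddit4, which glucocorticoids also induce, had 0.42 (SE 0.22), while the lipoprotein receptor Vldlr had -0.44 (SE 0.24). Vegfa, a vascular growth factor, had -0.78 (SE 0.37), with every sgEgfr sample below every sgRosa sample. Of 23 genes of amino acid synthesis and transport, 16 were positive and the median was 0.079, which ran from 0.019 without sgEgfr 2 to 0.21 without sgRosa 2. Aldh18a1, which makes the precursor of proline, was at 12.2, 11.6 and 11.4 CPM in samples sgEgfr 1 to 3, against 8.12, 8.05 and 4.45 CPM in sgRosa 1, 2 and 3+4, with ranges apart and a log2 fold change of 0.77 (SE 0.30). The cationic transporter Slc7a3 had 1.25 (SE 0.72), the proline enzyme Pycr1 0.86 (SE 0.57) and the glutamine transporter Slc1a5 -0.47 (SE 0.27). The 13 tRNA synthetase and export genes had 6 positive members and a median of -0.014, between -0.11 without sgEgfr 2 and 0.024 without sgEgfr 1. By p, the first were Eprs at -0.24 (SE 0.16, ranges apart), Aars at -0.18 (SE 0.14), Lars at -0.19 (SE 0.16) and Nars at 0.15 (SE 0.15).

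**Figure D5:**
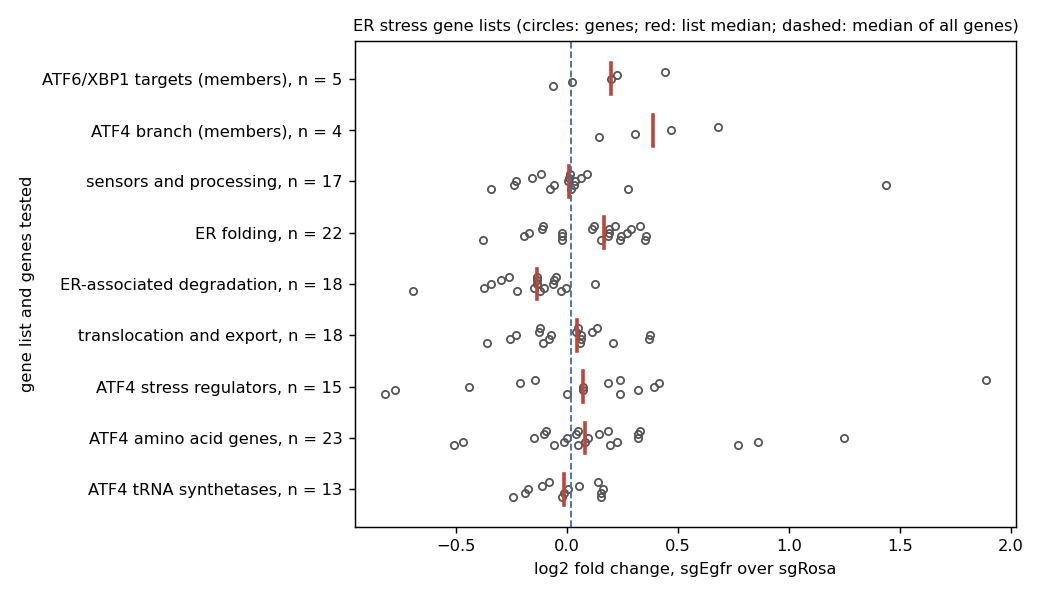
Log2 fold change of sgEgfr over sgRosa for each tested gene of the 2 groups of members and of 7 lists of other ER stress and ATF4 pathway genes. Circles are genes, red bars list medians and the dashed line the median of all 14936 genes (0.020). The ERAD median is -0.14 and that of ER folding genes 0.17.

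Other gene groups also varied between samples, and their part in the results was not tested. Immediate early genes, which dissociation also induces, took 0.281%, 0.533% and 0.597% of counts in sgEgfr 1 to 3, against 0.192%, 0.364% and 0.189% in sgRosa 1, 2 and 3+4. By this share, from high to low, the samples stood in the same order as for Ppp1r15a, except that sgRosa 2 lay above sgEgfr 1. By the mean log2 deviation of the 20 genes, sgRosa 2 (0.273) lay above both sgEgfr 2 (0.260) and sgEgfr 1 (-0.186). Of these 20 genes 16 had positive log2 fold changes, with a median of 0.58 (0.91 without sgRosa 2, and 0.34 without sgRosa 3 and 4 together), and Fos had 1.32 (SE 0.44) and Egr1 1.18 (SE 0.44). The 15 cytosolic heat shock genes took 0.474%, 0.545% and 0.467% in sgEgfr 1 to 3, against 0.334%, 0.536% and 0.489% in sgRosa 1, 2 and 3+4, and 12 had positive log2 fold changes. sgRosa 1, the sample where each ATF6/XBP1 target was lowest, also had the lowest share here. The share was highest in sgEgfr 2 and second lowest in sgEgfr 3, where the ATF6/XBP1 targets were highest on average. The mean log2 deviation of the 15 heat shock genes ordered the samples otherwise. It was -0.0099, 0.30 and 0.21 in sgEgfr 1 to 3, against -0.56, 0.050 and -0.00011 in sgRosa 1, 2 and 3+4. Ependymal and choroid plexus markers took 0.0121%, 0.00409% and 0.0975% in sgEgfr 1 to 3, against 0.0110%, 0.00573% and 0.0382% in sgRosa 1, 2 and 3+4. The 2 samples highest for them, sgEgfr 3 and sgRosa 3+4, were also the 2 highest for Creld2, but not for Hspa5, Xbp1, Herpud1 or Sdf2l1. sgEgfr 3, the highest for these markers, was itself the highest sample for Hspa5, Herpud1 and Creld2, while sgRosa 2 was highest for Xbp1 and Sdf2l1. sgRosa 2, second lowest for these markers, was among the 2 highest for Hspa5, Xbp1 and Sdf2l1. Of the 9 tested markers of this list 8 were positive, and the choroid plexus marker Ttr was negative (-3.01, SE 1.65). Of the 10 listed, 3 were at 0 counts in at least 1 sample.

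Markers of other cell types overlapped between the groups in their summed share, which a few abundant genes can carry. Gene by gene, 4 of 14 neuron and 4 of 13 endothelial markers had every sgEgfr sample above every sgRosa sample, against 3.76% of all genes. Among precursor markers this held for 1 of 12, and among microglia markers for 0 of 14. Among pericyte and fibroblast markers 1 of 11 had sgEgfr above and 1 of 11 had sgEgfr below. Neuron markers (13 of 14 tested positive) took 0.0445% to 0.0568% of counts in sgEgfr and 0.0316% to 0.0489% in sgRosa. Oligodendrocyte precursor markers (10 of 12) took 0.187% to 0.277% in sgEgfr and 0.157% to 0.218% in sgRosa. Microglia markers (14 of 14) took 0.0222% to 0.0486% in sgEgfr and 0.0177% to 0.0346% in sgRosa, and endothelial markers (10 of 13) 0.00883% to 0.0106% in sgEgfr and 0.00575% to 0.00925% in sgRosa. Pericyte and fibroblast markers (5 of 11) took 0.0591% to 0.0733% in sgEgfr and 0.0664% to 0.0711% in sgRosa, and Tagln was at 0 in every sample. Red blood cell and neutrophil markers (1 of 5 tested positive) took 0.00114% to 0.0830% in sgEgfr and 0.000394% to 0.0623% in sgRosa. Of 10 markers of B and plasma cells, which carry a large ER, 2 passed the filter, and the list took at most 0.000531% in sgEgfr and 0.000638% in sgRosa.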

How the data were processed

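The deposited values are raw counts of reads for each gene in 7 libraries. Per the submitters' processing notes, the build was mm10 and the tools included STAR 2.7.5c, fastp 0.23.2, featureCounts 2.0.1 and edgeR 3.42.4. Reads carried no stated molecular identifiers, and RNA input was 5 ng. Limits from depth cover counting error alone and leave out duplicate reads, so they are lower bounds. Pairs of libraries were set against sampling noise by chi-square (genes with 20 or more counts in the pair), and sgRosa 3 and 4 were summed. Genes were kept with filterByExpr (minimum count 10, total 15), scaled with TMM and tested with glmQLFTest in edgeR 4.0.16 (R 4.3.3), with guide as the only term and Benjamini-Hochberg adjustment over 14936 genes. CPM values are TMM-scaled, list shares are of raw totals, and deviations use log2 CPM with a prior count of 2. The script was tested on simulated counts. DESeq2 1.42.0 and limma 3.58.1 served as alternatives. The members and lists were chosen with earlier results of these data known, and the reported motifs after further letter strings had been searched. Named were Egfr, all members, and up to 4 genes per list by smallest unadjusted p, of which 1 gene is not reported here. Exon lengths and overlaps came from GENCODE M21 (GRCm38), promoters from RefSeq. Same-numbered replicates were not treated as pairs.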

Additional observations from a re-analysis of the deposited data

How the results depend on the processing

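The count of called genes was 0 in all 18 alternatives, with 236 to 960 genes at an unadjusted p under 0.05. Leaving out 1 library, or sgRosa 3 and 4 together, the median log2 fold change ran from -0.083 to 0.37 for the ATF6/XBP1 targets and from 0.17 to 0.44 for the ATF4 branch, where Trib3 enters without sgEgfr 1 and without sgRosa 1. Over the 4 genes tested with all samples, it ran from 0.17 to 0.53. In the same fits signs turned for Hspa5 (-0.17 to 0.41), Xbp1 (-0.17 to 0.13), Sdf2l1 (-0.14 to 0.24), Creld2 (-0.19 to 0.39), Ddit3 (-0.020 to 0.52) and Egfr (-0.55 to 0.27). The other turned signs were 0.065 for Xbp1 with quality weights, -0.021 for Sdf2l1 with no scaling factor and, for Egfr, 0.18 with limma-voom, 0.060 with the replicate block and 0.019 without sgRosa 3 and 4. The cause was not tested. Ppp1r15a, Herpud1, Atf4 and Chac1 kept a positive value wherever they were tested, and Trib3 a negative one in 3 fits. With the replicate block, the medians were 0.16 for the ATF6/XBP1 targets and 0.48 for the ATF4 branch, and Ppp1r15a had 0.68. Same-numbered samples correlated in their deviations at -0.106, 0.517 and 0.549, and sgEgfr 1 correlated best with sgRosa 2 (0.255), so the numbers were not taken as pairs. The medians of the lists of other ER stress and ATF4 genes, and those over the same genes, were added after the data were seen. Chac1 and Trib3 had few counts.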
